A study of Labrus bergylta with 24 samples.

Results

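The 200 most stable transcripts of the ballan wrasse hindgut were chosen by rule from RNA sequencing of 24 fish. Of 20751 transcripts in the deposited table, 9575 had a mean of 100 to 5000 normalized counts over the 24 fish and were eligible. The 200 with the lowest standard deviation (SD) of log2(value + 1) over all 24 fish were taken, which is 2.09% of the eligible transcripts. A normalized count is a transcript's read count divided by a size factor of its library, which puts libraries of different depth on a common scale. Ballan wrasse (Labrus bergylta) is a stomachless marine fish used to clean salmon of lice, and the hindgut is the last part of its intestine. After 4 weeks of acclimatization, during which all fish ate the reference diet, the experimental diets were fed for 5 weeks. The Control group (6 fish) stayed on the reference diet, the Prebiotic group (6 fish) received it with 0.4% of a commercial prebiotic (Aquate SG), the Soyasaponin group (6 fish) with 0.7% soyasaponin, and the Combined group (6 fish) with both additions. Soyasaponins are triterpenoid glycosides of soybean. With 2 tanks per diet and no label that places a fish in one of them, effects of tank and of diet cannot be told apart, and every p-value takes the fish of a diet to be independent.

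Every tissue holds transcripts whose level differs little from animal to animal, many of them from genes for basic cell upkeep such as protein synthesis and turnover, RNA processing and transport within the cell. Such transcripts serve as reference genes against which other genes are measured, in quantitative PCR and in the scaling of sequencing libraries. In the intestine this is a demanding role, because the mix of absorptive, secretory, muscle and immune cells in a sample can differ between animals. The transcripts here carry identifiers of the form LABE_00044750-RA. The RefSeq gene table of this species matched 0 of the 20751 identifiers, so no gene name, role or sequence is given for any of the 200, and the hindgut label was not checked against marker genes.

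Whole reads could be recovered from the table, and a library held 8.42 to 12.5 M (mega) of them. In all 60 pairs of fish that shared a diet, reads differed by far more than sampling noise: chi-square divided by its degrees of freedom ran from 18.1 to 86.4 over transcripts with at least 10 reads in the pair, so no library was counted double within a diet. Prebiotic replicates 5 and 4 were the fish farthest from the mean in 15.3% and 13.5% of the eligible transcripts. Control replicate 5 (10.1%) and Soyasaponin replicate 2 (8.52%) came next. Without Prebiotic replicates 4 and 5, the list of 200 chosen anew shared 139 members with the list described here.

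The stable transcripts were moderately abundant. Their mean ran from 193 to 4453 normalized counts with a median of 690, against a median of 320 over all eligible transcripts. In every library each of the 200 had at least 154 reads. The 2892 eligible transcripts with a mean of 100 to below 200 gave 1 of the 200. The class from 200 to below 500 gave 55 of 3464 (1.59%), from 500 to below 1000 gave 85 of 1777 (4.78%), from 1000 to below 2000 gave 44 of 926 (4.75%), and from 2000 to 5000 gave 15 of 516 (2.91%). Counting noise depends on level. Random drawing of reads alone gives an SD of 0.145 on the log2 scale at a mean of 100 normalized counts and of 0.0204 at 5000. At a mean below 142, counting noise alone was above the SD of the last transcript taken, and 1425 eligible transcripts (14.9%) lay there.

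**Figure D1:**
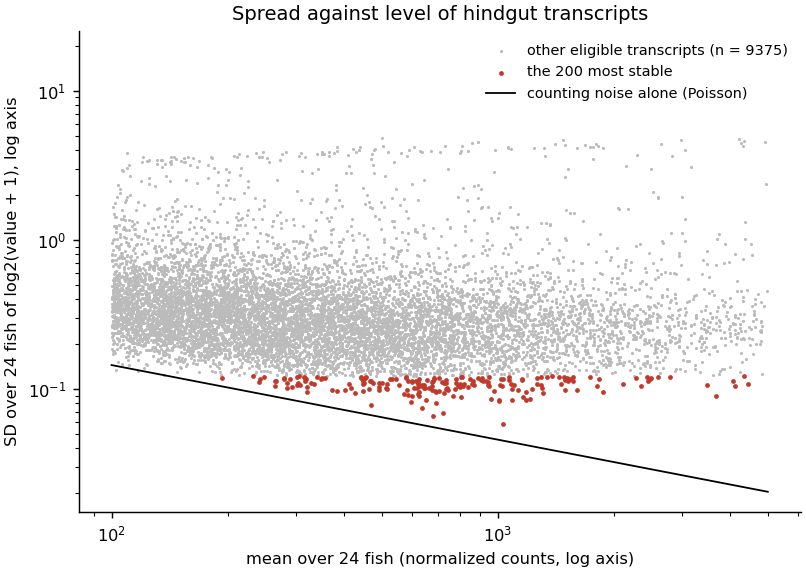
Each point is 1 eligible transcript, with its mean over 24 fish in normalized counts on the horizontal log axis and its SD of log2(value + 1) over the same fish on the vertical log axis; red points are the 200 most stable, grey points the other eligible ones, and the line is the SD that counting reads alone would give. The red points lie at SDs of 0.0586 to 0.121 and keep off the low end of the level axis, where the line itself rises to 0.145.

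The SD that chose the 200 ran from 0.0586 to 0.121 with a median of 0.109 on the log2 scale, against a median of 0.293 over the eligible transcripts. As a coefficient of variation this is a median of 7.52% between fish, against 20.3%. The highest fish exceeded the lowest by a median factor of 1.34 and by at most 1.53, and 199 of the 200 stayed below 1.5, as did 645 of 9575 eligible transcripts (6.74%). These values describe the choice and are not tested. The edge of the list is not a step. LABE_00040340-RA, the last inside, had an SD of 0.1214 at a mean of 1384 normalized counts, and LABE_00036787-RA, the first outside, had an SD of 0.1216 at a mean of 362.

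LABE_00044750-RA had the lowest spread of all. Its lowest, median and highest values were 930, 1038 and 1082 normalized counts in Control, 995, 1038 and 1055 in Prebiotic, 1004, 1043 and 1096 in Soyasaponin, and 963, 1014 and 1084 in Combined fish. The 4 diets overlapped almost wholly, and the highest of 24 fish was 1.18 times the lowest. Its SD of 0.0586 was 1.30 times the 0.0450 that counting alone gives.

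LABE_00044431-RA came next, with lowest, median and highest values of 625, 677 and 738 normalized counts in Control, 644, 665 and 728 in Prebiotic, 647, 681 and 746 in Soyasaponin, and 638, 678 and 717 in Combined fish. LABE_00030065-RA, the third in order, stood at 644, 721 and 760 in Control, 686, 730 and 770 in Prebiotic, 684, 712 and 758 in Soyasaponin, and 660.5, 723 and 765 in Combined fish. For both, the ranges of all 4 diets overlapped, and the median of each diet lay inside the range of every other diet. The fourth, LABE_00048771-RA, had a mean of 637 normalized counts and the fifth, LABE_00057307-RA, a mean of 470.0, with highest-to-lowest ratios of 1.20 and 1.23. Over these 5 transcripts the SD was 1.16 to 1.30 times counting noise.

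**Figure D2:**
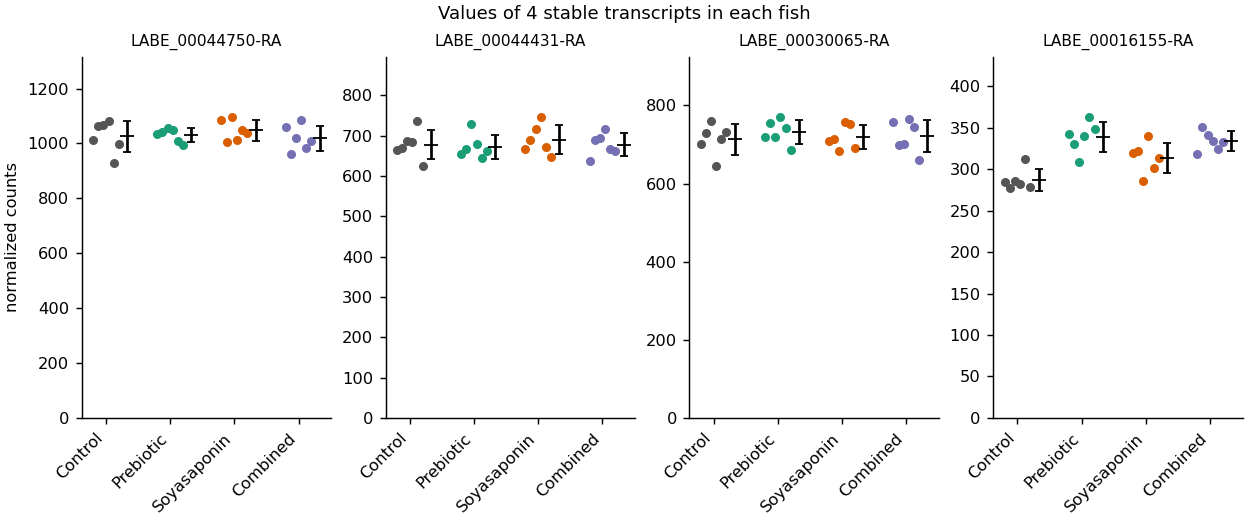
Each point is the value of 1 fish in normalized counts, by diet, for the 3 transcripts with the lowest spread and for LABE_00016155-RA; the bar beside each group is the mean ± SD (n = 6 fish), and the axes start at 0. The groups of the former 3 overlap, while all 6 Combined fish lie above all 6 Control fish for LABE_00016155-RA.

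Set against counting noise, the 200 were steady but not at the limit of counting. The SD over the 24 fish was 1.14 to 5.53 times the counting SD, with a median of 1.89, against a median of 3.80 over the eligible transcripts. In 42 of the 200 (21.0%) the ratio was below 1.5, and so it was in 208 of 9575 eligible transcripts (2.17%). Counting made up a median of 27.9% of the variance of the 200. It made up more than 50% in 32 of them (16.0%) and in 139 of the eligible transcripts (1.45%). After counting noise was subtracted, a median coefficient of variation of 6.26% between fish was left, from 2.53% to 8.22%. The SD in the ratio is the one that chose the 200, so the choice itself keeps these values low. They describe the choice and are not tested. The counting SD covers counting error only, since reads copied in the PCR are not independent molecules. The counting SD falls with level, while the rule caps the SD at every level. The ratio was higher at higher levels in the 200 and in the eligible transcripts alike. Its median was 1.44 in the 55 transcripts of 200 to below 500 normalized counts, 1.90 in the 85 of 500 to below 1000, 2.65 in the 44 of 1000 to below 2000, and 4.11 in the 15 of 2000 to 5000, and over the eligible transcripts of these classes it was 3.45, 4.59, 6.75 and 10.1.

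Both ends of that scale can be seen in single transcripts. LABE_00033600-RA, the least abundant of the 200 and the closest to counting noise, had lowest, median and highest values of 164, 196 and 221 normalized counts in Control, 193, 199 and 221 in Prebiotic, 168, 185 and 211 in Soyasaponin, and 169, 191 and 213 in Combined fish. Its 154 to 293 reads per library give a counting SD of 0.104, and the observed SD was 0.119. LABE_00027552-RA lay farthest above counting noise, at 3650, 4127 and 4612 normalized counts in Control, 4424, 4634 and 4838 in Prebiotic, 3836, 4309 and 4611 in Soyasaponin, and 3841, 4553 and 4821 in Combined fish. Its counting SD was only 0.0219 and its observed SD 0.121, and counting made up 3.27% of its variance, against 76.8% for LABE_00033600-RA. The most abundant of the 200, LABE_00001172-RA, with a mean of 4453 normalized counts and 3908 to 5078 over the fish, had an SD 4.98 times that of counting.

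The residual deviations were small in every fish, as the choice for low spread on the deposited scale makes them. They are no test of the deposited size factors. Of the 4800 values of the 200 transcripts, 3112 (64.8%) lay within 0.1 log2 of the transcript's own mean, 4542 (94.6%) within 0.2, and 14 (0.292%) beyond 0.3. Averaged over the 200, a fish deviated by -0.0529 (Control replicate 6) to 0.0513 (Combined replicate 4) on the log2 scale, so scaling each library to these transcripts in place of the deposited size factors would move it by a factor of 0.964 to 1.036. The spread of the 200 deviations within a fish was lowest in Control replicate 1 (SD 0.0841) and highest in Prebiotic replicates 5 (0.142) and 4 (0.132). Prebiotic replicate 5 was the fish farthest from the mean in 25 of the 200 transcripts and Prebiotic replicate 4 in 22, where an even share would be 8.33. In Prebiotic replicates 4 and 5 together, 32 of the 200 lay at least 0.1 log2 below their mean, 16 at least 0.1 above, and 8 in opposite directions. The shares of the eligible transcripts that did so were not counted. The first principal component of the 200 held 14.0% of their variance, against 31.5% for the 17056 transcripts with a mean of at least 10. The latter set is wider than the eligible one and the 200 were chosen for low spread, so nothing is read from this difference. Prebiotic replicates 5 and 4 carried 40.1% and 30.0% of the weight of the component of the 200. These weights were not compared with those over all transcripts.

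The spread was also described in fish that had not entered the choice, by leaving out a diet. The deposited size factors were kept, so the scale of the left-out fish was not set anew. The 200 transcripts chosen by the same rule on the 18 fish of the other diets shared 138 members with the full list when Control was left out, 125 without Prebiotic, 158 without Soyasaponin and 159 without Combined. In the 6 fish left out, the median SD of the chosen 200 was 0.117 for Control against 0.239 over the eligible transcripts, 0.141 against 0.283 for Prebiotic, 0.104 against 0.247 for Soyasaponin and 0.105 against 0.211 for Combined. In that order, 94, 94, 122 and 104 of the 200 were among the 10% of eligible transcripts with the lowest SD in the left-out fish, and 197, 186, 200 and 196 were below the median. Fewer, 26, 39, 47 and 24, were among the 200 lowest there. The chosen transcripts were also more abundant, with a median level of 649 to 690 normalized counts against 318 to 327. The ratio to counting noise was itself higher at higher levels among the eligible transcripts, so it does not set level aside. Its median over the chosen transcripts in the left-out fish was 2.18, 2.33, 1.95 and 1.84, against 3.15, 3.53, 3.41 and 2.66 over the eligible ones. On each of the 4 diets left out, the median SD and the median ratio of the chosen transcripts were thus below those of the eligible ones. Both were highest in Prebiotic fish. In the 4 Prebiotic fish other than replicates 4 and 5 the median SD was 0.104 against 0.229, and the median ratio 1.84 against 2.87. These 2 fish were singled out for lying far from the mean, and no other diet was trimmed. The values of the 4 fish are therefore not a comparison with the other diets.

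**Figure D3:**
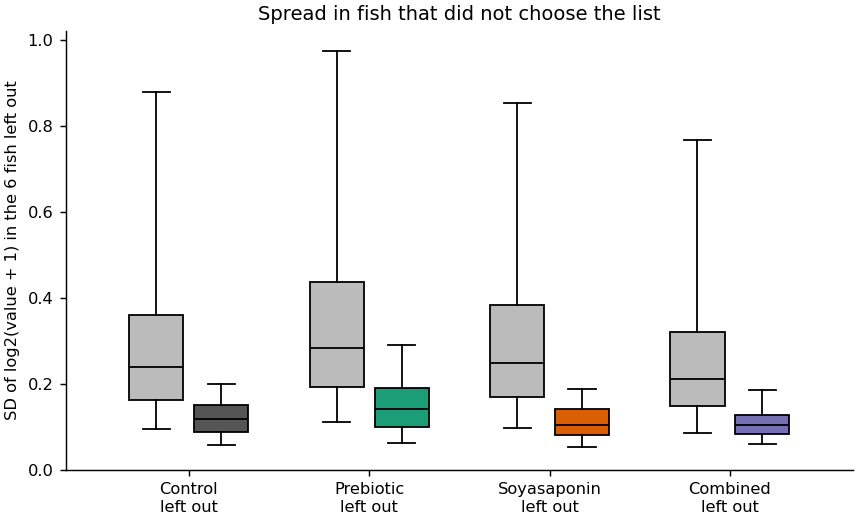
Boxes give the median and quartiles, and whiskers the 5th and 95th percentiles, of the SD of log2(value + 1) in the 6 fish of the diet that was left out; grey boxes are all eligible transcripts and coloured boxes the 200 chosen on the other 18 fish. The coloured medians of 0.104 to 0.141 lie below the grey medians of 0.211 to 0.283 on every diet.

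The means of the 4 diets lay close together, within a median range of 0.109 log2, against 0.335 over the eligible transcripts. In 86 of the 200 (43.0%) they lay within 0.1 log2, and in 3 (1.5%) they were 0.2 or more apart. Over the eligible transcripts these shares were 4.38% and 78.9%. Diet accounted for a median of 16.1% of the variance of these transcripts, where 13.0% is the share of the degrees of freedom that the diets take, and for 21.5% over the eligible transcripts. Control was the lowest diet in 82 of the 200 (41.0%) and the highest in 23 (11.5%), against 35.9% and 21.5% of the eligible transcripts. Control was not alone in this. Prebiotic was the lowest in 67 of the 200 and the highest in 49, against 25.4% and 37.6% of the eligible transcripts. Soyasaponin was the lowest in 30 and the highest in 62, against 16.3% and 17.2%. Combined was the lowest in 21 and the highest in 66, against 22.4% and 23.6%. The difference between diets is part of the total spread that chose the list, so these values and the counts below describe the choice, and nothing is read from their being low.

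The log2 fold changes of the 200 against Control had a median of 0.04 for Soyasaponin (from -0.19 to 0.19), 0.01 for Prebiotic (-0.18 to 0.24) and 0.04 for Combined (-0.12 to 0.22), and over all 17056 transcripts tested the medians were 0.02, 0.03 and 0.01. Values above 0 were seen in 142, 110 and 149 of the 200, in that order. Their share over all transcripts was not counted, and the 200 were measured in the same fish. Nothing is read from these counts. The 3 comparisons share the 6 Control fish, whose 200 transcripts averaged -0.0220 ± 0.0220 log2 (SD, n = 6). The median absolute change was 0.05, 0.06 and 0.05, against 0.19, 0.25 and 0.22 over all transcripts. For the main effect of soyasaponin (the 12 fish given it against the 12 not given it) the median of the 200 was 0.03, against -0.02 over all transcripts, and for that of the prebiotic 0.01 in both. The sign of the medians against Control depends on scaling: on total reads those of the 200 were -0.02 for Soyasaponin, -0.21 for Prebiotic and -0.04 for Combined. Over all transcripts tested on that scale the medians were -0.04, -0.20 and -0.06, so the change of sign was not particular to the 200. With each library scaled to the 200 themselves, the medians of the 200 came to within 0.01 of 0, which that scaling forces.

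With limma on log2(value + 1) of all 17056 transcripts, adjusted p-values (Benjamini-Hochberg) under 0.05 were found for 1 of the 200 in Prebiotic against Control, where 1.82% of all transcripts were called, and for 1 in Combined against Control, where 3.24% were. Both calls were of LABE_00016155-RA. An unadjusted p under 0.05 in limma was found for 20 of the 200 (10.0%) and 21.6% of all in Prebiotic against Control. In Combined against Control it was found for 18 (9.0%) and 20.6% of all. On the recovered reads, edgeR called 0 of the 200 in Prebiotic (1.77% of all) and 0 in Combined fish (2.87%), and DESeq2 called 5 (9.26% of all) and 1 (7.31%). In Soyasaponin against Control limma called 0 of the 200 and 0.985% of all, with 13 of the 200 (6.5%) and 16.0% of all at an unadjusted p under 0.05, while edgeR called 0 (1.13% of all) and DESeq2 also 0 (3.57%).

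The soyasaponin main effect was called by limma in 0 of the 200 and 5.96% of all transcripts, with a smallest adjusted p of 0.0594 among the 200 and with 18 of them (9.0%) and 21.4% of all at an unadjusted p under 0.05. Here edgeR called 2 (6.36% of all) and DESeq2 called 3 (9.40%), all higher with soyasaponin. For the prebiotic main effect limma called 0 of the 200 and 0% of all, with 14 of the 200 (7.0%) and 14.8% of all at an unadjusted p under 0.05; edgeR called 0 (0% of all) and DESeq2 1 (0.768%). For the interaction limma called 0 of the 200 and 0% of all, with 7 of the 200 (3.5%) and 12.7% of all at an unadjusted p under 0.05; edgeR called 0 (0% of all) and DESeq2 0 (0.551%). A difference of any kind among the 4 diets was called by limma in 0 of the 200 and 5.01% of all, with 12 of the 200 (6.0%) and 25.6% of all at an unadjusted p under 0.05, by edgeR in 0 (6.85% of all) and by DESeq2 in 6 (16.2%).

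limma borrows spread from other transcripts of like level, and for the 200 this raised the standard error (SE) of a diet against Control from a median of 0.0603 to 0.0706 log2. Without that borrowing, 4 of the 200 were called in Prebiotic against Control, all higher (1.78% of all transcripts), and 6 in the soyasaponin main effect, 5 of them higher (5.50% of all). Without Prebiotic replicates 4 and 5, DESeq2 called 0 of the 200 in Prebiotic against Control (1.58% of all). The model without borrowing also called 0 (0.00589% of all). An unadjusted p under 0.05 was then found for 17 of the 200 (8.5%) and 13.4% of all in DESeq2. In the model without borrowing it was found for 28 (14.0%) and 12.6% of all.

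**Figure D4:**
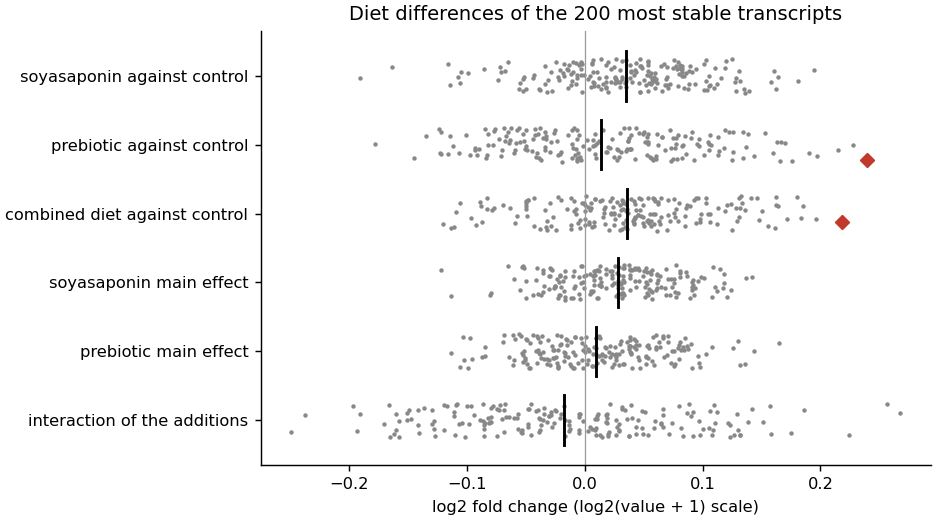
Each point is the log2 fold change of 1 of the 200 transcripts, on the log2(value + 1) scale, in each of 6 contrasts; black lines mark the median of the 200 and red diamonds the changes with an adjusted p under 0.05 in limma. Points run from -0.19 to 0.24 in the comparisons with Control and from -0.25 to 0.27 in the interaction, and both diamonds are LABE_00016155-RA.

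LABE_00016155-RA had its lowest mean in Control fish. Its lowest, median and highest values were 277, 284 and 313 normalized counts in Control, 309, 342 and 363 in Prebiotic, 286, 317 and 339 in Soyasaponin, and 318, 333 and 351 in Combined fish. All 6 Combined fish lay above all 6 Control fish, and in Prebiotic only the lowest fish, at 309, fell below the highest Control fish, replicate 5 at 313. It rose from 287 ± 13.2 in Control to 339 ± 18.2 in Prebiotic fish (SD, n = 6 each), which on the log2 scale is 0.24 (limma, SE 0.06, adjusted p = 0.0455), and to 334 ± 11.9 in Combined fish, at 0.22 (limma, SE 0.06, adjusted p = 0.0497). In Soyasaponin fish it stood at 314 ± 18.4 and the difference from Control, 0.13 log2, did not pass (limma, SE 0.06, adjusted p = 0.303). Diet held 68.0% of its variance, the highest share among the 200. Both calls sat at the threshold, and they shared the 6 Control fish. In limma the same transcript did not pass for any difference among the 4 diets (adjusted p = 0.0506). It did not pass for the prebiotic main effect either (adjusted p = 0.160 in limma). Leaving out 1 fish in turn kept the Prebiotic call in 8 of 24 cases, with a log2 difference of 0.22 to 0.27 and an adjusted p of 0.0319 to 0.103 in limma. It kept the Combined call in 6 of 24, with a difference of 0.20 to 0.24 and an adjusted p of 0.0258 to 0.123. edgeR made neither call (adjusted p = 0.0836 and 0.0633) and DESeq2 made both (adjusted p = 0.0135 and 0.0230). Without Prebiotic replicates 4 and 5 the Prebiotic difference was 0.21 log2 and no longer passed (adjusted p = 0.168 in limma, 0.0648% of all transcripts called). On total reads it was 0.01 log2. The Combined difference ran from 0.14 to 0.22 log2 over the alternative fits.

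In 5 further transcripts, named here after their values were seen, all fish of 1 diet lay above all Control fish, although limma called none of them in that comparison. Groups did not overlap in 2 of the 200 for Soyasaponin against Control (1.27% of all transcripts tested), in 3 for Prebiotic (1.56%) and in 1, LABE_00016155-RA, for Combined (3.15%). LABE_00014532-RA had 551 to 652 normalized counts in Control and 663 to 704 in Soyasaponin fish, and Combined fish, at 551 to 712, covered both ranges. LABE_00014402-RA had 328 to 356 in Control and 363 to 382 in Soyasaponin fish, while Prebiotic fish ran from 302 to 394 and Combined fish from 290.3 to 388. The Control and Soyasaponin groups were both narrower here than the other diets.

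For Prebiotic against Control the 3 were LABE_00022333-RA, with 653 to 764 normalized counts in Control and 765 to 823 in Prebiotic fish, LABE_00059639-RA, with 404 to 455 and 456 to 538, and LABE_00043212-RA, with 2365 to 2626 and 2795 to 3328. The gap between the groups was about 1 normalized count in the former pair. LABE_00043212-RA was the most abundant of them, and its highest values were those of Prebiotic replicates 5 and 4, at 3328 and 3205.

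The stability of the 200 holds on the scale of the deposited size factors. As a share of all normalized counts in the library, the 200 together made up 2.03 ± 0.107% in Control fish, 1.97 ± 0.0318% with both additions, 2.00 ± 0.0639% with soyasaponin and 1.76 ± 0.0900% with the prebiotic (SD, n = 6 each). All 6 Prebiotic fish, at 1.59 to 1.85%, lay below the other 18, at 1.87 to 2.15%, although the gap was small and Prebiotic replicate 5 alone gave the 1.59%. The share is the sum of the 200 divided by the library's total, so at a like sum a higher total gives a lower share. The sum of the 200 ran from 178460 (Control replicate 4) to 192072 (Combined replicate 4) normalized counts. The choice itself keeps this range narrow. The totals ran from 9.94 to 11.3 M in Prebiotic fish and from 8.47 to 9.82 M in the other 18. The 251 transcripts above a mean of 5000 took 39.8 ± 2.23% of the total in Prebiotic and 36.2 ± 1.95% in Control fish (SD, n = 6 each). In Soyasaponin fish they took 37.0 ± 1.77% and in Combined fish 37.9 ± 1.02%. The ranges overlapped, at 36.8 to 42.5% in Prebiotic, 33.6 to 39.6% in Control, 34.6 to 38.8% in Soyasaponin and 36.7 to 39.2% in Combined fish. The part of these 251 transcripts in the lower share of the 200 was not tested.

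With each library scaled to its total reads, an alternative added after seeing these shares, the log2 fold change of Prebiotic against Control had a median of -0.21 over the 200 and of -0.20 over all transcripts tested. limma then called 82 of the 200 (41.0%), all lower, where 15.3% of all transcripts were called. Without Prebiotic replicates 4 and 5 it called 6 of the 200 on this scale, where 1.85% were called, and the median of the 200 was -0.17. Relative to the median of all transcripts the 200 thus stood 0.02 lower with all fish and 0.03 higher without these 2 libraries. The 200 were chosen for low spread, so a shift like that of all transcripts passes a test more easily in them. Nothing is read from the higher shares called among the 200. Chosen anew on total reads, the list of 200 shared 74 members with the list described here.

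**Figure D5:**
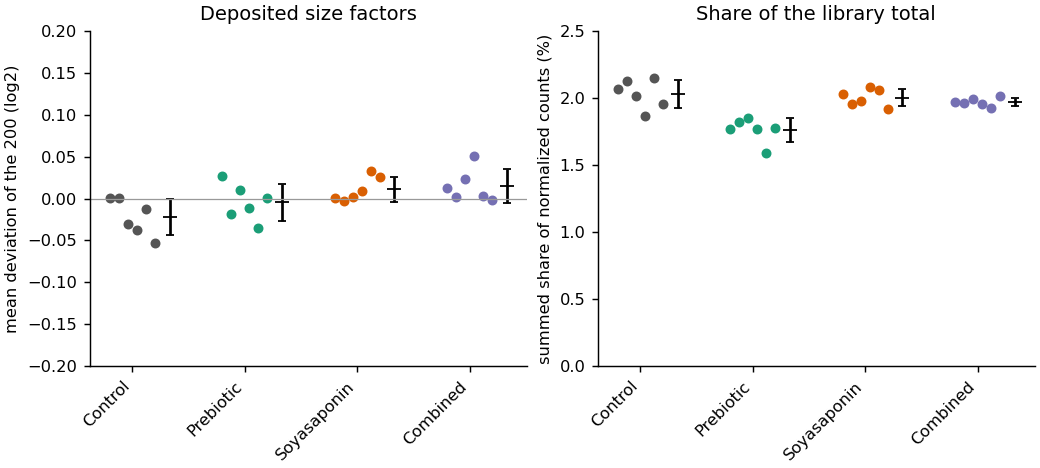
Points are single fish by diet and bars the mean ± SD (n = 6); on the left the mean deviation of the 200 transcripts from their own means (log2, deposited size factors), on the right their summed share of all normalized counts in the library (%, axis from 0). The deviations lie between -0.0529 and 0.0513, while on the right all 6 Prebiotic fish, at 1.59 to 1.85%, lie below the other 18.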

How the data were processed

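Hindgut RNA of 24 fish was sequenced as stranded mRNA libraries, per the labels' protocols. The authors deposited a table of signal values, which are read counts scaled by 1 factor per library. The submitters' processing notes list cutadapt, TopHat2, featureCounts, Subread and DESeq2, without versions, and the genome build was not given in the sources used here. Each value was divided by the lowest nonzero value of its column, and 100% of 498024 quotients were whole within 1e-06. These quotients were taken as reads (8.42 to 12.5 M per library, factors 0.803 to 1.42).

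The members and lists were chosen with earlier results of these data known. Named transcripts are the 5 with the lowest SD, the most and least abundant, those at the edge of the list and at the extremes of the ratio to counting noise, and, per contrast, at most 2 that rose and 2 that fell with the largest called changes. The counting SD is the Poisson SD of the reads by the delta method, and leaves out the error of the size factors. limma 3.58.1 in R 4.3.3 was run with a trend in level on log2(value + 1) of the 17056 transcripts with a mean of at least 10, leaving out 3695, with the 4 diets in 1 model and two-sided tests. All 200 passed this filter, which uses the mean over all fish. The pseudocount understates fold changes of low transcripts. Alternatives were other pseudocounts, filters and scalings, edgeR 4.0.16 (quasi-likelihood) and DESeq2 1.42.0 on the reads, and leaving out fish. Scaling to total reads, a model without moderation, and both of these and DESeq2 without Prebiotic replicates 4 and 5 were added after seeing the data. The limma fit, for the soyasaponin main effect only, and the counting SD were tried on simulated data. The other contrasts, edgeR, DESeq2 and the model without moderation were not. Figures were drawn with matplotlib 3.10.9.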

Additional observations from a re-analysis of the deposited data

Results flagged for a closer look

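Among 72 groups of 6 fish examined (named transcripts, the summed share and the mean deviation of the 200, by diet), 6 held a fish far from the other 5 of its diet. Chance flags about 1 in 20 where groups are not picked by their values. The named transcripts were picked by theirs, so the 6 cannot be set against that rate. LABE_00016155-RA stood at 313 normalized counts in Control replicate 5, above the other Control fish at 277 to 285. LABE_00014402-RA stood at 356 in Control replicate 5 and at 382 in Soyasaponin replicate 2. LABE_00040340-RA stood at 1647 in Control replicate 6. LABE_00014532-RA stood at 580.0 in Prebiotic replicate 4, below the other Prebiotic fish. The 200 together took 1.59% of normalized counts in Prebiotic replicate 5, the lowest share of its diet.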

How the results depend on the processing

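Read depth limits low transcripts: below a mean of 142 normalized counts the counting SD alone exceeds the SD of the last transcript taken. Shares of all transcripts called stand in parentheses. For Prebiotic against Control, 1 of the 200 was called (1.82%); the count was 0 with no filter (1.15%), with TMM scaling (1.76%), scaled to the 200 (1.67%), in edgeR (1.77%), with only the diets compared (0.0235%) and without Prebiotic replicates 4 and 5 (0.0648%), 5 in DESeq2 (9.26%) and 4 without moderation (1.78%), both 0 without these 2 fish, 82 on total reads (15.3%), and 6 without the 2 fish (1.85%). For Combined against Control it was 1 (3.24%), 0 with no filter (2.14%), scaled to the 200 (3.38%), on total reads (3.50%), in edgeR (2.87%) and with only the diets compared (3.93%), and without the 2 fish 4 in DESeq2 (8.75%), 3 without moderation (3.98%) and 1 on total reads, which was lower in place of higher (5.49%). Soyasaponin against Control went from 0 to 1 in DESeq2 without the 2 fish (4.39%). The soyasaponin main effect went from 0 to 1 with TMM (6.06%), 2 on total reads (6.51%), 2 in edgeR (6.36%), 3 in DESeq2 (9.40%) and 6 without moderation (5.50%); the last 2 counts were 1 (10.6%) and 1 (6.14%) without the 2 fish. The prebiotic main effect went from 0 to 10 on total reads (2.94%), which was 0 without the 2 fish (0.111%), and to 1 in DESeq2 (0.768%). A difference of any kind went from 0 to 1 with a pseudocount of 5 (5.29%), 1 with a mean of at least 50 (7.77%), 45 on total reads (15.2%), 6 in DESeq2 (16.2%) and 2 without moderation (4.43%); the last 3 were 5 (6.43%), 5 (11.7%) and 1 (1.73%) without the 2 fish. A list chosen anew shared 119 members after quantile normalization, 74 on total reads, 93 by median absolute deviation and 125 without the Prebiotic diet. The median SD of 0.109 became 0.121 after quantile normalization and 0.145 on total reads, and the median ratio of 1.89 became 2.04 and 2.56. The cause was not tested in these cases, and nothing is read from the higher shares called among the 200 on total reads. Leaving out 1 fish in turn gave 0 to 2 calls for Prebiotic and for Combined against Control, 0 to 3 for the soyasaponin main effect, 0 to 1 for any difference and 0 to 0 for the other contrasts, 167 to 193 shared members, a median SD of 0.105 to 0.110 and a ratio of 1.86 to 1.93. No paired analysis was possible because the replicate numbers were given in the order of the records and tie no fish together.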
